A study of Mus musculus with 55 samples.

Results

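The comparison described here set cerebellum RNA from Pon1 knockout mice given chlorpyrifos oxon (CPO) at 0.35 mg/kg/day against RNA from knockout mice given the vehicle alone. Its members are the arrays titled for the knockout genotype at that dose, 5 in number, and the 4 arrays of the knockout vehicle group, which makes 9 of the 55 arrays in the series. Both groups were C57Bl/6 mice labelled Pon1-/-, injected under the skin once a day from postnatal day 4 to postnatal day 21 with CPO in DMSO or with DMSO only. Bisected cerebellum was taken at postnatal day 22. Biotin-labelled RNA was hybridised to Affymetrix Mouse Gene 1.0 ST arrays, which read transcripts with many short probes along each gene. The other 46 arrays were used only to estimate the spread and for the comparisons named below. Among them were wild-type (WT) mice and mice carrying the human paraoxonase variants R192 or Q192 in place of their own. These mice were given the vehicle or CPO at 0.35 or 0.5 mg/kg/day. The rest were 3 arrays labelled Pon1-/- at 0.5 mg/kg/day. All shared the injection days and the age given above. The labels give neither the sex of the animals nor whether each array came from a separate animal, so the p-values measure the spread between these arrays. CPO replicates 1 and 2 shared a label number, as did vehicle replicates 2 and 3, and the labels do not say what the number marks. All levels are the submitters' log2 intensities, on which a difference of 1 is a factor of 2. Fitted differences were adjusted for the 2 array dates in the labels and so depart slightly from differences of group means.

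Chlorpyrifos oxon is the active metabolite of the insecticide chlorpyrifos. It phosphorylates the active-site serine of acetylcholinesterase, the enzyme that ends cholinergic transmission, and reacts with other serine hydrolases as well. Paraoxonase 1, made in the liver and carried in blood on high-density lipoprotein, hydrolyses the oxon, and mice without it are more sensitive to it. In the first postnatal weeks of the mouse, granule neurons of the cerebellum are still being born and its axons are being myelinated.

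The tissue label was met by its defining genes. Gabra6, the GABA receptor subunit of cerebellar granule neurons, had a mean of 12.53 ± 0.25 (SD, n = 5) in the CPO arrays and 12.81 ± 0.19 (SD, n = 4) in the vehicle arrays. Pcp2, a Purkinje cell gene, lay at 10.24 ± 0.21 (n = 5) and 10.36 ± 0.35 (n = 4). The genotype label was not borne out by the Pon1 probe set. Pon1 read between 9.78 and 10.39 on the 5 CPO arrays and between 9.95 and 10.35 on the 4 vehicle arrays. The 12 WT arrays at 0 or 0.35 mg/kg/day read between 4.88 and 5.55, which is lower. The labels do not say which part of the gene the knockout allele lacks, so this probe set does not check the deletion, and the arrays are called those labelled KO throughout.

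Of the 5 CPO arrays labelled KO, replicate 5 stood apart. At an adjusted p under 0.05 in the limma fit, 4 genes (0.0268% of the 14950 tested) differed between the vehicle arrays of R192 and KO mice, and in all 4 replicate 5 lay outside the range of the other 11 KO arrays. Mrpl20, a protein of the mitochondrial ribosome, read 7.88 on replicate 5, from 9.36 to 9.52 on the other 4 CPO arrays, from 9.40 to 9.57 on the vehicle arrays and from 8.06 to 8.47 on the R192 arrays. Hspa4l, a chaperone of the heat shock protein family, read 11.10 on replicate 5, from 10.34 to 10.52 on replicates 1 to 4 and from 10.90 to 11.19 on the R192 arrays. Replicate 5 was therefore on the R192 side in each, and below the R192 range in Mrpl20. Plekhd1 read 7.45 on it and at most 6.62 on replicates 1 to 4, and the small nucleolar RNA Snord53 read 7.90 against at most 6.62. The number in its label was shared with replicates 3 and 4 of the R192 group at the same dose. The counts, lists and differences below are given with all 9 arrays and, where a second value follows, without this array.

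**Figure D1:**
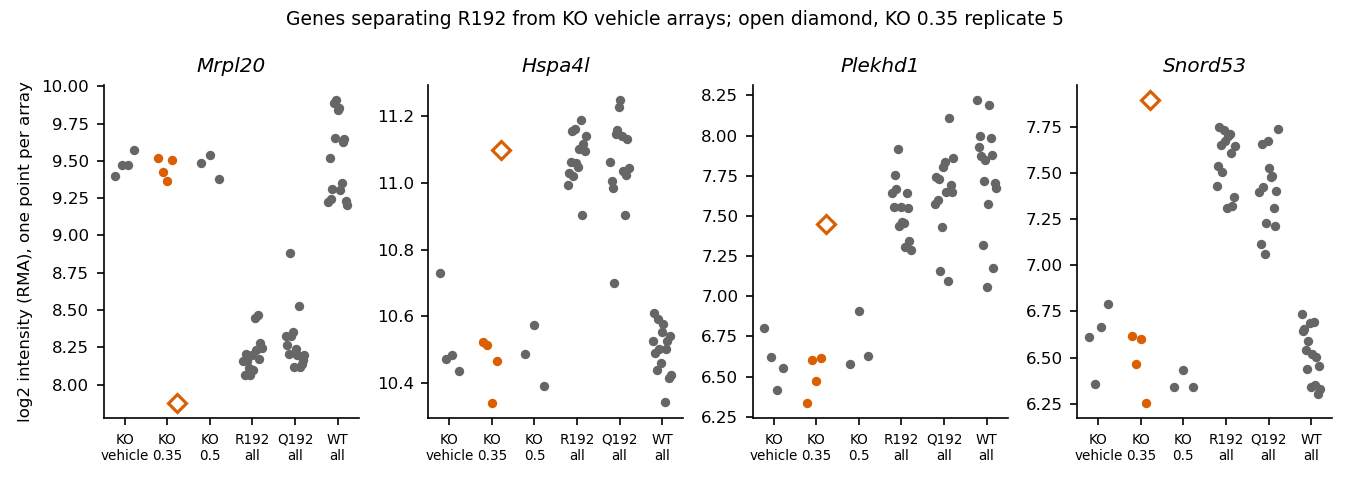
Log2 intensity of Mrpl20, Hspa4l, Plekhd1 and Snord53, the 4 genes that differed between R192 and KO vehicle arrays, with 1 point per array and arrays grouped on the horizontal axis. KO 0.35 replicate 5 (open diamond) sits with or beyond the R192 and Q192 arrays in all 4 panels, while the other 4 KO 0.35 arrays (orange) sit with the KO vehicle arrays.

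A pair of vehicle arrays labelled KO also stood apart, each in its own way. Principal axes were computed over all 55 arrays of the series. On the first axis, vehicle replicate 1 and CPO replicate 5 took the lowest places among the 9 arrays, at -28.9 and -21.6. The other 7 of these arrays lay between -10.4 and 20.3. That axis held 27.5% of the variance over the 55 arrays. Vehicle replicate 4 read 11.26 for Xist, the RNA of the inactive X chromosome, where the other 8 arrays read between 5.52 and 5.99, and 5.57 for the Y-linked Kdm5d, where the others read between 8.87 and 9.69. Xist and Y-linked genes such as Kdm5d were left out of the tests, while other X-linked genes were kept. The array medians of the 9 arrays ranged from 7.38 to 7.54.

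No gene passed an adjusted p of 0.05 between the CPO and vehicle arrays labelled KO (0% of 14950), whether replicate 5 was in or out. The smallest adjusted p from limma was 0.66 with all 9 arrays and 0.201 without replicate 5. At an unadjusted p under 0.05, 963 genes (6.44%) differed with all arrays, of which 576 (3.85%) were higher and 387 (2.59%) lower with CPO. With each array centred on its own median these were 301 higher and 597 lower, so the split between directions depends on the scaling. The median difference over all genes was 0.03, and 58.8% of genes lay above 0. In 100 genes (0.669%) all 5 CPO arrays read above all 4 vehicle arrays, and in 24 (0.161%) all 5 read below.

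Among the 10 genes with the smallest p in the higher direction, 5 had groups that did not overlap. Genes of both directions were ranked on these same arrays, so separate groups are partly built into the choice. Sh2d6, which encodes an SH2-domain protein, read 7.19, 7.15, 7.39, 7.35 and 7.52 on CPO replicates 1 to 5 and 6.91, 7.01, 6.99 and 7.15 on vehicle replicates 1 to 4. The lowest CPO and highest vehicle arrays of Sh2d6 both round to 7.15. Its fitted difference was 0.31 (SE 0.07, limma adjusted p 0.66), and 0.26 without replicate 5, which was the highest of the 5. Syn3, encoding synapsin III of the synaptic vesicle surface, read 8.73, 8.50, 8.58, 8.83 and 8.68 with CPO and 8.18, 8.46, 8.30 and 8.38 with vehicle. Every CPO array was thus above the highest vehicle array for Syn3, and replicate 5 lay in the middle of its group. The difference was 0.35 (SE 0.09) with all arrays and 0.34 (SE 0.09) without replicate 5, in limma at adjusted p values of 0.66 and 0.201.

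The other 3 non-overlapping genes were Olfr545, an olfactory receptor, at a difference of 0.28 (0.25 without replicate 5), Slc22a20, an organic anion transporter, at 0.30 (0.26), and Six5, a homeobox transcription factor, also at 0.30 (0.26). These 3 were dim, with CPO means of 7.15, 6.90 and 6.80. Their gaps were thin, with lowest CPO arrays at 7.05, 6.80 and 6.69 and highest vehicle arrays at 7.04, 6.78 and 6.68. In each, replicate 5 was the highest CPO array. Dnaic2, an axonemal dynein chain, and Odf3b, a protein of sperm tail fibres, differed by 0.21 and 0.24, and by 0.24 and 0.23 without replicate 5, with 1 or more arrays in overlap. Pura, which encodes a neuronal nucleic acid-binding protein, read 9.63 on vehicle replicate 1 and between 10.08 and 10.44 on the other 8 arrays, at a difference of 0.29 and then 0.25. The positional gene Hoxb3 and the sugar transporter gene Slc50a1 completed the 10, at 0.27 and 0.20, or 0.30 and 0.18 without replicate 5.

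In the lower direction 2 of the 10 genes had groups that did not overlap. Wdr45b, a phosphoinositide-binding protein of the autophagy machinery, read 8.85, 9.23, 9.19, 9.10 and 8.94 with CPO and 9.42, 9.24, 9.34 and 9.33 with vehicle. Its difference was -0.27 (SE 0.09), and -0.24 without replicate 5. The second was the uncharacterised 4931415C17Rik, with CPO arrays between 6.20 and 6.66 and vehicle arrays between 6.69 and 6.78, at a difference of -0.27 and then -0.26. Gabarapl2, an ATG8-family protein of autophagosomes, read 11.63, 11.83, 11.58, 11.12 and 10.83 with CPO and 11.89, 11.72, 11.73 and 11.66 with vehicle. Replicates 4 and 5 were its low arrays and replicate 2 lay inside the vehicle range. Its difference was -0.37 with all arrays and -0.22 without replicate 5, a change of over 1.5 times. A second probe set of Gabarapl2 gave a difference of means of -0.22 with all arrays.

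Cct8, a subunit of the cytosolic chaperonin, differed by -0.22 (-0.20 without replicate 5), and Mrpl42, a mitochondrial ribosomal protein, by -0.42 (-0.38). Polr1d, a subunit shared by RNA polymerases I and III, and Higd1a, a mitochondrial protein induced by low oxygen, differed by -0.30 and -0.27, or -0.29 and -0.22 without replicate 5. Ammecr1, Fra10ac1 and Eola1 completed the list at -0.26, -0.34 and -0.34, or -0.32, -0.38 and -0.35. The other probe sets of 3 of these genes gave smaller differences of means, which were -0.06 for Polr1d, -0.18 for Higd1a and -0.13 for Eola1. Of these 20 genes, 7 had groups that did not overlap with all 9 arrays and 8 without replicate 5. The differences of the 20 ran from 0.20 to 0.42 in size.

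**Figure D2:**
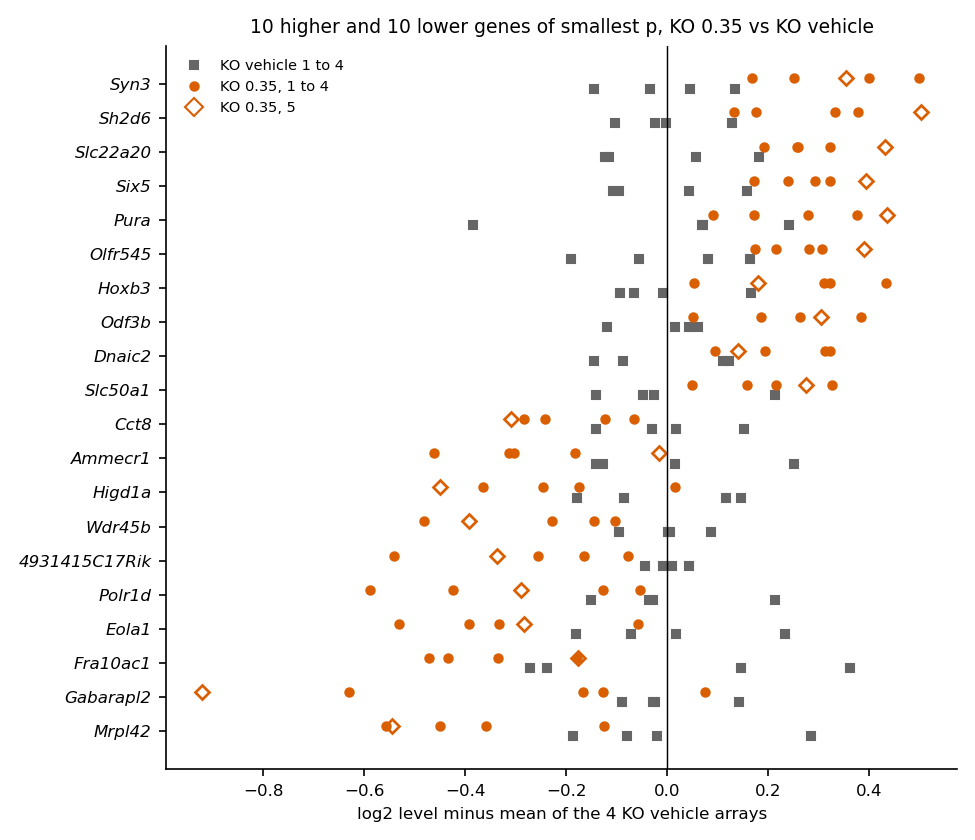
The 20 genes of smallest p, 10 in each direction and 1 row per gene, with each array's log2 level drawn relative to the mean of the 4 KO vehicle arrays (squares, vehicle; filled circles, KO 0.35 replicates 1 to 4; open diamonds, replicate 5). The groups are apart in 7 rows, such as Syn3 and Wdr45b, and Gabarapl2 shows replicate 5 as the lowest array.

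Ranked by size of difference among genes at an unadjusted p under 0.05, the higher side was led by Slc6a5, the glycine transporter of inhibitory neurons. It read 10.18, 9.31, 10.09, 9.87 and 8.62 with CPO and 8.46, 9.57, 7.90 and 9.19 with vehicle. The groups overlapped, with vehicle replicates 1 and 3 and CPO replicate 5 as the low arrays, and the difference was 0.82 (SE 0.36), or 1.11 without replicate 5. The 3 genes that followed were Hox genes, which encode homeobox transcription factors that give axial position. The cerebellum forms from a part of the hindbrain that expresses none of them. Hoxa5 read between 7.83 and 8.56 with CPO and between 7.04 and 8.11 with vehicle, a difference of 0.79 and then 0.90. Hoxc4 read 7.18, 7.02, 7.36, 6.96 and 6.83 with CPO and 6.15, 6.79, 6.03 and 6.69 with vehicle. The groups did not overlap, vehicle replicates 1 and 3 were the low arrays, and the difference was 0.64 (SE 0.21, limma adjusted p 0.66) or 0.70 without replicate 5 (adjusted p 0.201). Hoxb5 differed by 0.60 and then 0.74. Mab21l2, a gene of eye and midbrain development, and Fscn1, an actin-bundling protein, came next at 0.55 and 0.53, or 0.59 and 0.78 without replicate 5.

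The list of brainstem and midbrain neuron markers lay on the same side. It holds Hoxa5, Hoxc4 and Hoxb5 as members, so it is not separate from these genes. Of its 29 tested genes 27 were higher with CPO, against 58.8% of all genes, with a median of 0.19 and 5 at an unadjusted p under 0.05, all of them Hox genes. The mean level of the list was 7.45 on vehicle replicate 1 and 7.54 on vehicle replicate 3, where the other 7 arrays lay between 7.77 and 8.01. Without vehicle replicate 1 the median was 0.11, and without CPO replicate 5 it was 0.22. Within array date 1 it was 0.24 and within date 2 it was 0.14. With the list's mean as a covariate, the count of genes at an unadjusted p under 0.05 was 442, against 963. The list was chosen with earlier results of these data known. The part of brainstem tissue in the differences was not tested. In RNA from whole tissue, more cells of a type and more RNA per cell cannot be told apart. On the lower side the largest differences were those of Gcnt1, an enzyme of O-glycan branching, at -0.51 (-0.55 without replicate 5), the 5S ribosomal RNA copy n-R5s136 at -0.47 (-0.38), and the matrix protein Aspn and the sulfate transporter Slc13a1, both at -0.46 (-0.75 and -0.46).

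Without replicate 5, 2941 genes (19.7%) reached an unadjusted p under 0.05, of which 1745 (11.7%) were higher and 1196 (8%) lower with CPO. The split was 1082 and 1928 with arrays centred on their medians. Over all genes 57.8% lay above 0 and 42.2% below. The 10 higher genes of smallest p were then Cdk5r2, L1cam, Sqstm1, Dgat2, Pacs1, Slc23a2, Dnaic2, Nt5dc2, Nectin2 and Lgals3bp. Cdk5r2, an activator of the neuronal kinase Cdk5, read between 8.94 and 9.24 on CPO replicates 1 to 4, 8.29 on replicate 5, and 8.26, 8.89, 8.78 and 8.43 on the vehicle arrays. Its difference was 0.47 (SE 0.12, limma adjusted p 0.201) without replicate 5 and 0.31 with it. L1cam, an axonal adhesion molecule, differed by 0.38, against 0.27 with replicate 5.

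Sqstm1, the autophagy receptor p62, read between 11.47 and 11.63 on CPO replicates 1 to 4, and 10.55 on replicate 5. Its vehicle arrays read 10.58, 11.39, 11.40 and 11.11, so that vehicle replicate 1 was as low as CPO replicate 5. The difference was 0.45 without replicate 5 and 0.24 with it. Lgals3bp, a secreted glycoprotein, differed by 0.57 against 0.33. Among the lower genes, Rbm41, an RNA-binding protein, differed by -0.50 against -0.38, and Aspn by -0.75 against -0.46. Fbxl5, the iron-sensing ubiquitin ligase subunit, read between 10.62 and 10.73 on CPO replicates 1 to 4, 11.08 on replicate 5 and between 10.80 and 11.11 with vehicle.

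CPO replicate 5 and vehicle replicate 1 lay at the same end of most of these genes. In 19 of the 20 genes named by this rule CPO replicate 5 lay on the vehicle side of all other CPO arrays, and in 15 of the 20 vehicle replicate 1 was the vehicle array farthest from the CPO arrays. Over the 2941 genes the shares were 87.1% and 83.9%, and over all 14950 genes, taking each in the direction of its difference, 56.7% and 61%. The 20 and the 2941 genes were chosen by the fit that left out CPO replicate 5 and kept vehicle replicate 1. High shares are thus partly built into the choice and are no separate evidence about these arrays. Leaving out vehicle replicate 1 left 244 genes at an unadjusted p under 0.05 with the 5 CPO arrays, and 510 with 4. Leaving out vehicle replicate 2 gave 2139 and 4238. With all other arrays kept, leaving out CPO replicate 1, 2, 3 or 4 gave 571, 1492, 657 or 572. No gene passed an adjusted p of 0.05 in limma in any of these fits. Without replicate 5, all 4 CPO arrays read above all 4 vehicle arrays in 383 genes (2.56%) and below in 222 (1.48%). Random labels would put the groups apart, in either direction, with probability 0.0286, the smallest 2-sided exact permutation p over 70 splits. Genes that vary together are not separate tests, so these counts are not read as an effect.

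**Figure D3:**
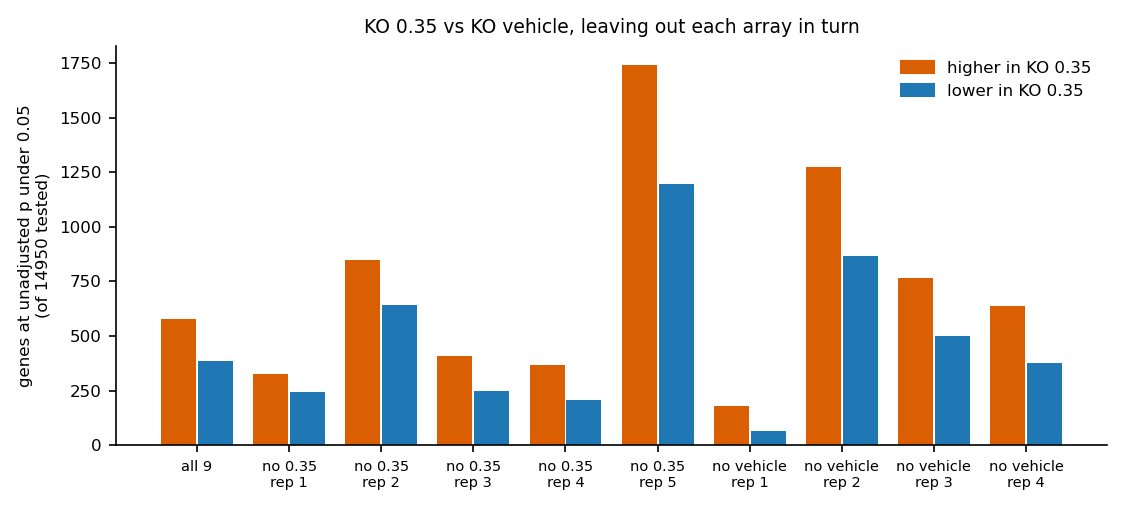
Number of genes at an unadjusted p under 0.05, higher (orange) and lower (blue) in KO 0.35 than in KO vehicle arrays, with all 9 arrays and with each array left out in turn. The bars range from 178 higher and 66 lower without vehicle replicate 1 to 1745 higher and 1196 lower without 0.35 replicate 5.

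The direct targets of the oxon and its hydrolases gave no difference that passed the test. Ache, which encodes acetylcholinesterase, read 9.25, 8.81, 9.07, 9.05 and 8.22 with CPO and 7.80, 8.94, 8.60 and 8.56 with vehicle. The groups overlapped, with CPO replicate 5 and vehicle replicate 1 as the low arrays. The difference was 0.42 (95% interval 0.01 to 0.83, limma adjusted p 0.66), and 0.60 (0.18 to 1.01, adjusted p 0.201) without replicate 5. The 2-sided exact permutation test gave p = 0.222 over 126 splits, and 0.0571 over 70 splits without replicate 5, where the smallest possible values were 0.0159 and 0.0286. Bche, butyrylcholinesterase, differed by 0.11 (-0.18 to 0.40), and by 0.0285 without replicate 5. Pon1, Pon2 and Pon3 differed by -0.10, -0.07 and -0.09, and by -0.18, -0.02 and -0.10 without replicate 5. Of the 15 nicotinic and muscarinic receptor genes tested, 12 were higher, with and without replicate 5, with medians of 0.07 and 0.09. Over all genes 58.8% and 57.8% were higher. Chrnb4, a nicotinic receptor subunit, read from 6.96 to 7.24 with CPO and from 6.70 to 6.90 with vehicle, without overlap, at a difference of 0.23 (SE 0.08, limma adjusted p 0.66) and 0.18 without replicate 5.

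Other serine hydrolases depended on the 2 arrays named above. Of 33 tested, 23 (69.7%, against 58.8% of all genes) were higher with CPO with all arrays, with a median of 0.07. At an unadjusted p under 0.05 there was 1 gene in each direction, Lipe at 0.19 and Esd at -0.22, and a second probe set of Esd gave a difference of means of -0.12. Without replicate 5 the median was 0.14, with 11 higher and 1 lower at that p, where all genes gave 11.7% and 8%, and without both replicate 5 and vehicle replicate 1 there were 2 higher. Fasn, fatty acid synthase, read 9.87, 9.59, 9.79, 9.94 and 8.41 with CPO and 8.54, 9.75, 9.47 and 8.95 with vehicle. Replicate 5 was the lowest of the 9 arrays for Fasn, and the difference was 0.36 with it and 0.67 without it. Of the 10 cholinergic presynaptic genes, 8 were higher in either fit, against 58.8% and 57.8% of all genes. Slc18a3, the vesicular acetylcholine transporter, differed by 0.40 and 0.57.

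Most subunits of the respiratory chain, the ribosome, the proteasome and the chaperonin were lower by small amounts, with and without replicate 5. Of 34 tested subunits of respiratory complex I, 31 were lower with CPO against 41.2% of all genes, with a median of -0.11, and 8 lower and 0 higher at an unadjusted p under 0.05 against 2.59% of all genes. Ndufb2, a subunit of its membrane arm, read 8.64, 8.73, 8.51, 8.51 and 8.49 with CPO and 8.80, 8.85, 8.74 and 8.81 with vehicle. The groups did not overlap, and the difference was -0.24 (SE 0.09, limma adjusted p 0.66) with all arrays and -0.21 without replicate 5. All 11 tested subunits of cytochrome c oxidase were lower, with a median of -0.12, as were 14 of 17 of the ATP synthase, with a median of -0.09. In complexes II and III 11 of 14 were lower. Without replicate 5 the lower members were 28 of 34 in complex I, 10 of 14 in complexes II and III, 8 of 11 in cytochrome c oxidase and 11 of 17 in the ATP synthase, against 42.2% of all genes. The citric acid cycle was divided evenly, with 8 of 16 genes higher, or 9 without replicate 5.

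The ribosome and the proteasome gave a similar picture. Of 54 cytosolic ribosomal proteins 50 were lower, against 41.2% of all genes, with a median of -0.10. At an unadjusted p under 0.05 there were 7 lower (all genes, 2.59%), led by Rpl34 at -0.25, and 9 lower (all genes, 8%) without replicate 5. Of 31 proteasome subunits 27 were lower, or 24 without replicate 5, with a median of -0.10 and 9 lower at that p, among them Psmb7, Psma6 and Psma3 of the core particle at -0.20, -0.22 and -0.24. Without replicate 5, 6 subunits were lower and 1 higher at that p. Of the 14 chaperonin and prefoldin subunits 13 were lower, with a median of -0.12, or 12 without replicate 5. In the heat shock and unfolded protein list 27 of 33 were lower with all arrays and 20 of 33 without replicate 5. The 5 at an unadjusted p under 0.05 were Hspa5, Hsp90b1, Pdia4, Pdia6 and Manf, all of the endoplasmic reticulum, at differences between -0.33 and -0.22. Without replicate 5, of these only Hsp90b1 reached that p, at -0.26, beside Dnaja1 at -0.24 and Hspe1 at -0.22. No gene of these lists passed the adjusted test in limma.

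These lists kept their medians below 0 within each array date when all arrays were used, at -0.10 and -0.08 for complex I, -0.10 and -0.09 for the ribosome and -0.13 and -0.10 for the proteasome. Without replicate 5 the medians were -0.09 for complex I, -0.11 for cytochrome c oxidase, -0.10 for the ribosome and -0.06 for the proteasome. Some members then lay on the other side. Uqcrc1 of complex III differed by 0.40 (SE 0.16) without replicate 5, Atp5d by 0.32, and Psmd3 of the proteasome cap by 0.37. In date 1 without replicate 5, where a single CPO array was set against 2 vehicle arrays, 7 of the 11 subunits of cytochrome c oxidase were higher. The mean level of complex I on each array ran from 10.12 to 10.32 with CPO and from 10.29 to 10.36 with vehicle, with replicate 5 as the lowest.

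The medians of the synaptic vesicle, myelin and sterol lists were above 0 and were nearer to 0 without vehicle replicate 1. Of 38 synaptic vesicle genes, 26 (68.4%, against 58.8% of all genes) were higher with all arrays, with a median of 0.09, which was 0.02 without vehicle replicate 1. The 4 at an unadjusted p under 0.05 (all genes, 3.85% higher) were Syn1, Syn2, Syn3 and Stx1a. Without replicate 5 the median was 0.24, with 18 higher and 1 lower at that p (all genes, 11.7% and 8%), and without vehicle replicate 1 as well it was 0.11, with 3 higher. Syn1 differed by 0.41 with all arrays and 0.62 without replicate 5. Slc32a1, the vesicular transporter of GABA and glycine, read 9.96, 9.69, 9.58, 9.70 and 8.55 with CPO and 8.51, 9.55, 9.48 and 9.08 with vehicle, so that CPO replicate 5 and vehicle replicate 1 were again level.

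Of 24 oligodendrocyte and myelin genes 23 were higher with all arrays, against 58.8% of all genes. Their median was 0.18, and none reached an unadjusted p under 0.05. Without replicate 5, 22 were higher with a median of 0.21, and 7 reached that p, where all genes gave 11.7% higher. The mean of the list was 10.21 on vehicle replicate 1 and between 10.69 and 11.11 on the other 8 arrays. Without vehicle replicate 1 the median was 0.04 and 15 of 24 were higher. Mag, a myelin adhesion protein, read 11.90, 11.54, 11.79, 11.96 and 10.42 with CPO and 9.96, 11.70, 11.36 and 11.06 with vehicle. Its difference was 0.52 with all arrays and 0.81 without replicate 5 (limma adjusted p 0.66 and 0.203). Of 19 cholesterol synthesis genes 17 were higher, against 58.8% of all genes. Their median was 0.17, which was 0.05 without vehicle replicate 1 and 0.21 without CPO replicate 5. With the brainstem list as a covariate the median of the myelin list was -0.04 and that of the cholesterol list -0.02.

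Markers of the cerebellum's own neurons and of its coverings gave no single direction. Over all genes 58.8% were higher with all arrays and 57.8% without replicate 5, and several of the counts below lay near these shares. Of 22 granule neuron markers 4 were higher with all arrays, with a median of -0.08, and 14 without replicate 5, with a median of 0.03. Of 17 Purkinje cell markers 6 were higher and then 9. Of 15 markers of meninges and fibroblasts 14 were higher, but none of 15 within date 1, at a median of -0.32, and all 15 within date 2, at 0.37. The 11 choroid plexus markers divided in the same way, at -0.50 and 0.26. Microglial markers had a median of 0.06, with and without replicate 5, and those of Bergmann glia and astrocytes -0.01 and 0.10. Of 20 endothelial and pericyte markers 14 were higher with all arrays and 13 without replicate 5, with medians of 0.10 and 0.17. Of 15 cerebellar interneuron markers 12 and then 13 were higher, with medians of 0.13 and 0.20. Immediate early genes, which follow neuronal activity, were divided 15 and 15 with all arrays, at a median of 0.01. Without replicate 5, 22 of these 30 were higher, at a median of 0.08, and without vehicle replicate 1 the median was -0.06. Glutathione and oxidative stress genes had medians of 0.03 and 0.07 over 33 genes. The autophagy list was divided 15 and 15 with all arrays and 17 higher to 13 lower without replicate 5. Its Gabarapl2 and Atg12 reached an unadjusted p under 0.05 with all arrays, and without replicate 5 there were 7 higher and 4 lower of 30, where all genes gave 11.7% and 8%.

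**Figure D4:**
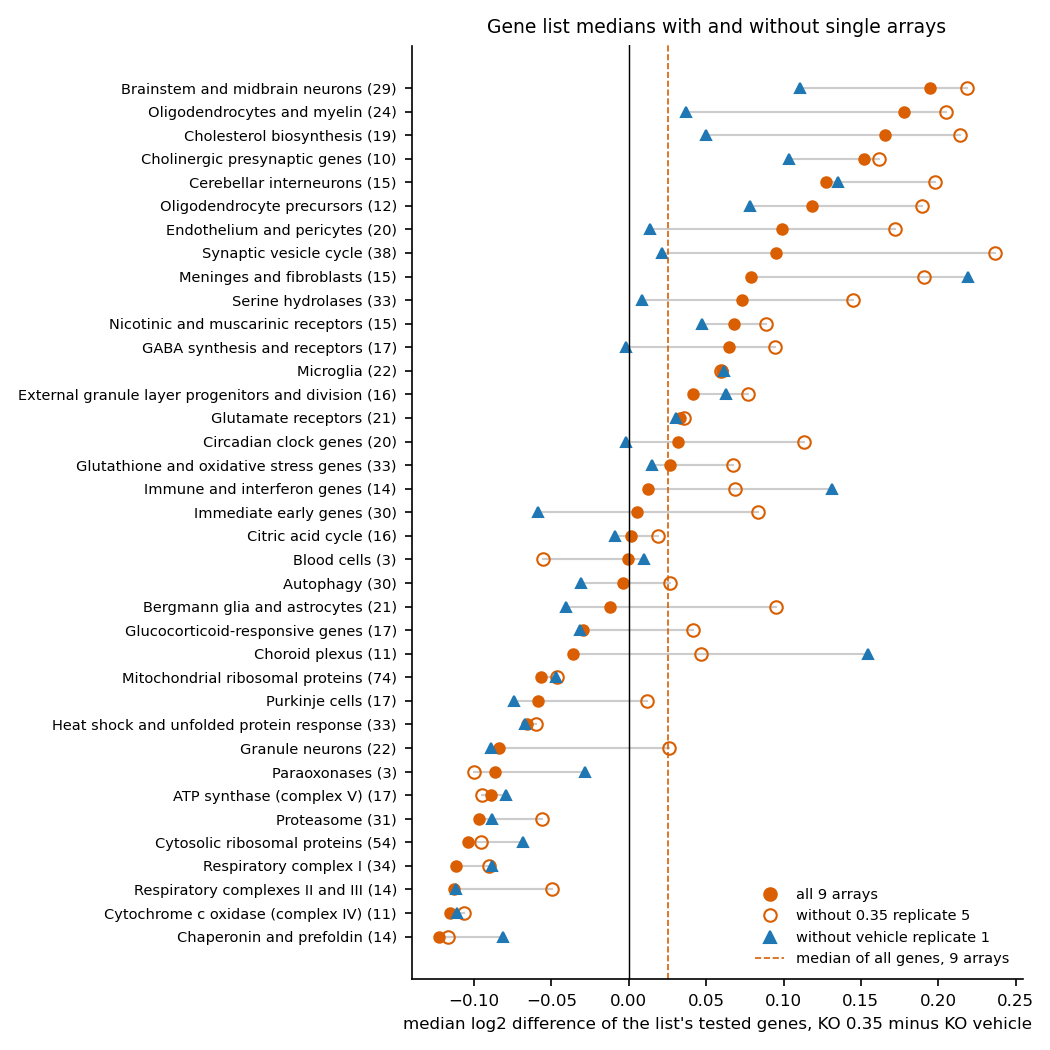
Median log2 difference between KO 0.35 and KO vehicle arrays of each of 37 gene lists, with the number of tested genes in brackets, for all 9 arrays (filled circles), without 0.35 replicate 5 (open circles) and without vehicle replicate 1 (triangles). The dashed line is the median of all genes, 0.03. Respiratory chain, ribosome, proteasome and chaperonin lists stay below 0 in all 3 fits, while the myelin and cholesterol lists move to 0.04 and 0.05 without vehicle replicate 1.

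No single gene passed the adjusted test between the higher dose and the lower. Between the 3 arrays labelled KO at 0.5 mg/kg/day and the 5 at 0.35, no gene passed an adjusted p of 0.05 in limma (0%), and 558 (3.73%) reached an unadjusted p under 0.05, or 299 (2%) without replicate 5. Syn3 had a mean of 8.66 ± 0.13 (SD, n = 5) at 0.35 and 8.51 ± 0.11 (n = 3) at 0.5, against 8.33 ± 0.12 (n = 4) with vehicle, and the interval of the difference between doses was -0.36 to 0.03. 4931415C17Rik had a mean of 6.46 at 0.35, 6.78 at 0.5 and 6.74 with vehicle. Hoxa5 had means of 8.28, 7.51 and 7.49 in the same order. Ache had means of 8.88, 8.82 and 8.48, and the interval between doses was -0.49 to 0.42. Both doses were set against the same 4 vehicle arrays.

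Between the doses some lists of cell type markers lay on 1 side. All 22 granule neuron markers were higher at 0.5 than at 0.35, against 50.5% of all genes, with a median of 0.26, and 21 of 22 without replicate 5, against 49.9% of all genes, with a median of 0.17. The list's mean level ran from 10.61 to 10.93 at 0.5, from 10.21 to 10.66 at 0.35 and from 10.17 to 10.71 with vehicle. Of 17 Purkinje cell markers 15 were higher and then 14. All 15 markers of meninges and fibroblasts were lower at 0.5, against 49.5% of all genes and 50.1% without replicate 5, with medians of -0.30 and then -0.41. Of these, 7 reached an unadjusted p under 0.05 (all genes, 2.12% lower), and 10 without replicate 5 (1.38%). Their mean level ran from 7.64 to 8.01 at 0.5 and from 7.72 to 8.76 at 0.35, where replicates 2 and 3 were the high arrays, so that the groups overlapped. All 11 choroid plexus markers were lower, with medians of -0.35 and -0.43, and 22 of 24 myelin genes, or 24 without replicate 5. The part of tissue composition in the values of the 2 doses was not tested.

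The effect of 0.35 mg/kg/day in arrays labelled KO was then set against that in WT arrays, with 6 WT arrays at the dose and 6 with vehicle. The WT arrays at the dose were 3 pairs, each sharing a label number, and WT vehicle replicates 4 to 6 shared another. Each WT group may thus hold fewer than 6 separate units. The fit allowed for a correlation between arrays of the same number. Without that correlation, 506 genes (3.38%) passed an adjusted p of 0.05 in limma for the difference between the effects. With the correlation kept and all arrays in, 1 gene (0.00669%) passed, and 3740 (25%) reached an unadjusted p under 0.05. That gene was Mid1, which lies on the X chromosome and encodes a microtubule-associated ubiquitin ligase. On the KO arrays Mid1 read 8.79, 8.91, 9.35, 8.98 and 8.11 with CPO and 9.11, 9.21, 9.18 and 9.31 with vehicle. On the WT arrays it ran from 9.22 to 11, with a median of 10.21, with CPO, and from 8.70 to 9.75, with a median of 8.99, with vehicle. CPO arrays were thus higher among the WT arrays and mostly lower among the KO arrays, and the difference of effects was -1.49 (SE 0.28, limma adjusted p 0.0386). With each of the 21 arrays left out in turn it ran from -1.69 to -1.31, and the call was lost in 11 of the 21, at limma adjusted p values up to 0.109. These were KO 0.35 replicates 1 and 4, KO vehicle replicates 1 and 4, WT 0.35 replicates 1, 2 and 6, and WT vehicle replicates 2, 3, 4 and 6. Without the 3 arrays of the series with high Xist, which are KO vehicle replicate 4 and WT 0.35 replicates 1 and 2, it was -1.24 at a limma adjusted p of 0.362.

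Without replicate 5 the difference of effects passed in 16.6% of genes, with 1639 (11%) more positive and 841 (5.63%) more negative in KO than in WT. With arrays centred on their medians the split was 978 and 1671. No gene passed without vehicle replicate 1 (3096 at an unadjusted p under 0.05). The share was 4.71% without CPO replicate 1, 10% without CPO replicate 4, 4.29% without WT 0.35 replicate 2 and 0.221% with array weights. The largest positive differences were those of Glra1, Slc6a11, Slc6a5 and Mag, and the largest negative ones those of Sycp1, Mid1, Rnf148 and Mir690. Slc6a5 on the KO arrays was given above, and on the WT arrays it ran from 7.81 to 9.92, with a median of 9.01, with CPO, and from 8.59 to 10.36, with a median of 9.61, with vehicle. The difference of effects for Slc6a5 was 1.77 (SE 0.48, 95% interval 0.81 to 2.74). Mag on the WT arrays had a median of 10.87 with CPO and 11.67 with vehicle, and a difference of effects of 1.70 (SE 0.40, 0.89 to 2.51). Glra1, a glycine receptor subunit, differed by 2.09 (SE 0.68), and Sst, somatostatin, by 1.45 (SE 0.40), all at limma adjusted p values of 0.0324 or lower. Slc6a11, a GABA transporter, differed by 1.82, and Sycp1, a protein of the meiotic synaptonemal complex, by -1.34. Without vehicle replicate 1 none of these passed. With each of the 20 arrays left out in turn, that was the only such loss for Slc6a5, Mag and Sst. Glra1 was also lost without CPO replicates 1, 3 or 4, KO vehicle replicate 3, WT 0.35 replicates 1 or 2, or WT vehicle replicate 4. Slc6a11 was also lost without CPO replicate 1 or WT 0.35 replicate 2, and Sycp1 without these or CPO replicate 3.

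By list, 19 of 38 synaptic vesicle genes passed as more positive in KO and 3 as more negative, and 11 of 19 cholesterol genes, 9 of 24 myelin genes and 9 of 33 serine hydrolases passed as more positive, against 11% of all genes. So did 9 of 20 endothelial and pericyte markers, 6 of 15 interneuron markers, 4 of 12 markers of oligodendrocyte precursors, 6 of 22 of microglia, 4 of 21 of Bergmann glia and astrocytes and 4 of 29 of the brainstem list. None of 22 granule neuron markers passed in either direction. All of these counts were 0 without vehicle replicate 1, which is a single array of the 4 on that side. They were also 0 when the brainstem list was a covariate, and when the 3 arrays with high Xist were left out. In each of these fits no gene of the 14950 passed, so every list had to give 0. These counts therefore say nothing about the lists themselves. The brainstem list had a mean level between 7.10 and 7.94 on the WT CPO arrays and between 7.48 and 8.19 on the WT vehicle arrays. In WT alone, all 19 cholesterol genes, 23 of 24 myelin genes and all 22 microglial markers were lower with CPO, against 7835 of all 14950 genes. Their WT medians were -0.36, -0.38 and -0.27, where KO without replicate 5 gave 0.21, 0.21 and 0.06. For the synaptic vesicle genes and serine hydrolases, WT gave -0.13 and -0.11 and KO 0.24 and 0.14.

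**Figure D5:**
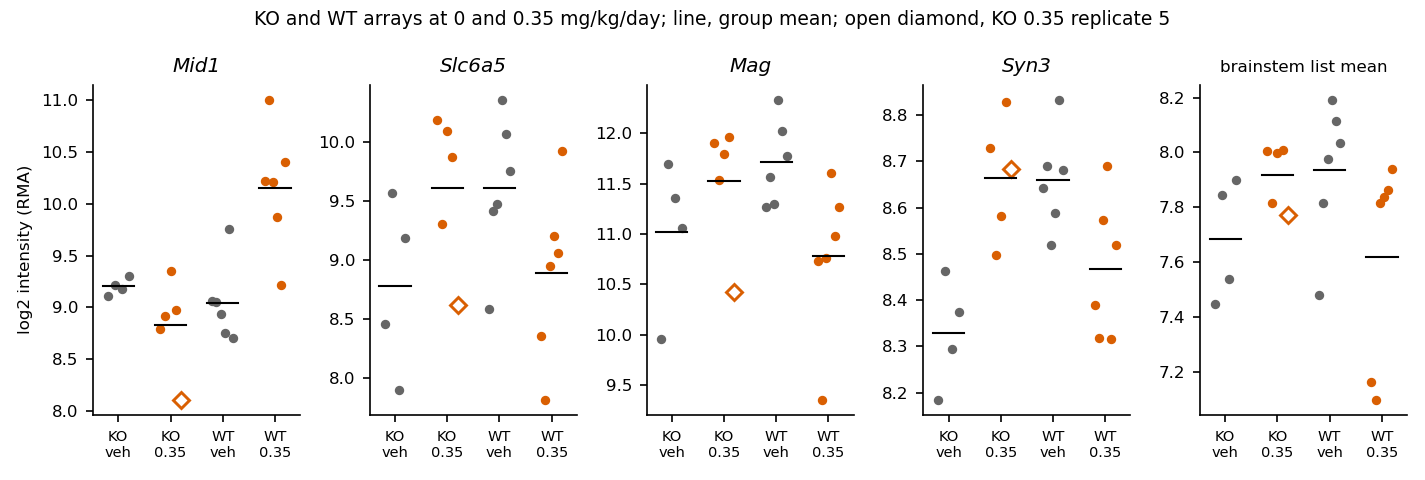
Log2 intensity of Mid1, Slc6a5, Mag and Syn3 and the mean level of the brainstem list (far right) on each KO and WT array at 0 and 0.35 mg/kg/day, with lines at the group means and KO 0.35 replicate 5 as an open diamond. Mid1 is high on WT 0.35 arrays. Slc6a5 is low on KO vehicle replicates 1 and 3, where the brainstem list is also low. Mag is low on KO vehicle replicate 1 and KO 0.35 replicate 5, and the list is not low on the latter. Both genes are low on some WT 0.35 arrays.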

How the data were processed

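The submitters deposited log2 intensities per probe set, summarised by RMA in Affymetrix Expression Console 1.1 per the submitters' processing notes; values ran from 1.15 to 14.80 and no scanner files were used here, so signal over background is not known. Of 35557 probe sets, 21789 carried 1 gene symbol; the probe set with the highest mean stood for a gene, which gave 19938 genes. Genes below the 25th percentile of mean level (6.44) and 3 sex-linked genes were left out, leaving 14950. limma 3.58.1 (R 4.3.3) was fitted to all 55 arrays with 12 groups, array date and, as a random block, the number in the array's label (correlation 0.131; 42 residual degrees of freedom), with a mean-variance trend. p-values were adjusted by Benjamini-Hochberg over all 14950 genes. Single genes were also tested by exact permutation.

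Named genes are, per fit, the 10 of smallest p in each direction, those of largest difference, and list members. Members and lists were chosen with earlier results of these data known. The fits were tested on simulated data. No 2 KO arrays of a group held the same values: the smallest root mean square difference was 0.14, between vehicle replicates 2 and 3, which share a label number. Replicate numbers did not pair the groups. The alternatives tried concerned array date, number correlation, filters, probe sets, centring, weights, variance trend, replicate block, covariates and leaving out each array.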

Additional observations from a re-analysis of the deposited data

Results flagged for a closer look

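In 186 groups of values examined for a sample far from the rest, 30 (16.1%) had one. Chance gives about 1 in 20 for genes picked without regard to their values, and these genes were named partly for extreme values, so that rate is no measure for them. Of 66 groups of KO 0.35 arrays, 11 had one, and in 9 it was replicate 5. These were Hspa4l at 11.10, Mrpl20 at 7.88, Plekhd1 at 7.45, Snord53 at 7.90, Slc6a11 at 10.37, Mag at 10.42, Gaa at 8.57, Mir690 at 10.15 and Rnf133 at 8.85. The other KO 0.35 arrays far from their group were replicate 1 for Mir186, at 7.22, and replicate 3 for Serpinb2, at 6.17. KO vehicle replicate 1 was far from its group for Hspa4l at 10.73, Slc6a11 at 9.64, Sulf2 at 7.77, Rnf148 at 9.20, Rnf133 at 9.14 and 2310067E19Rik at 8.92. KO vehicle replicate 4 was far for Xist at 11.26, Eif2s3y at 4.15, Uty at 4.38 and n-R5s136 at 11.88. Among WT arrays, 0.35 replicate 2 was far for Gsn at 8.89, Sycp1 at 8.47 and Mir690 at 10.42. WT vehicle replicate 4 was far for Gcnt1 at 6.46, Sycp1 at 4.94, Rnf133 at 6.97 and 2310067E19Rik at 6.67, replicate 5 for Mid1 at 9.75 and replicate 1 for Glra1 at 8.04.

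The effect of 0.35 mg/kg/day differed between KO and WT arrays for Mid1 at -1.49 with all arrays, and for 16.6% of genes without KO replicate 5. The 10 largest positive differences of effects without it were those of Glra1 at 2.09, Slc6a11 at 1.82, Slc6a5 at 1.77, Mag at 1.70, Gsn at 1.55, Sulf2 at 1.51, Gaa at 1.502, Fscn1 at 1.47, Fa2h at 1.46 and Sst at 1.45. The 10 largest negative ones were those of Sycp1 at -1.34, Mid1 at -1.31, Rnf148 at -1.19, Mir690 at -1.17, Airn at -1.15, Gcnt1 at -1.10, Rnf133 at -1.06, 2310067E19Rik at -1.003, Bmp5 at -0.9995 and Serpinb2 at -0.96. Each difference was tested in limma as an interaction.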

How the results depend on the processing

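The count of genes passing an adjusted p of 0.05 was 0 for CPO 0.35 against vehicle in KO arrays under every alternative run with all arrays. Without replicate 5 it was 1 within array date 1 (Gm1976 at -0.9968, adjusted p 0.00831) and 0 under the other alternatives. Replicate numbers were in the labels, but deviations of same-numbered arrays correlated at -0.565, -0.111, 0.156 and 0.081, so the numbers did not pair the groups. With the replicate block 1021 and 3410 genes reached an unadjusted p under 0.05, with and without replicate 5. For the difference of effects with all arrays, passing in 0.00669% of genes, the share was 3.38% without the number correlation, 0.0134% with centring, 0% with the replicate block, 0% with the brainstem covariate, 0% without the 3 high-Xist arrays and 0% with a sex score, and from 0% to 16.6% leaving out each array. Without replicate 5, against 16.6%, it was 0.221% with array weights, 0% with the brainstem covariate, 0% without the high-Xist arrays and 0% with the sex score, and from 0% to 23.9% leaving out each array, with 4.29% without WT 0.35 replicate 2 and 4.71% without KO 0.35 replicate 1. For R192 against KO vehicle arrays, against 4 genes, it was 10 without the number correlation, 7 with the replicate block and from 1 to 6 leaving out each array. The high-Xist and sex score alternatives, and the brainstem covariate for the difference of effects, were chosen after seeing the data.

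Directions turned in small differences of single genes, and the cause was not tested. Pon2 gave 0.0246 and Pon3 0.0347 with array weights, 0.051 and 0.137 within date 2 (with or without replicate 5), and without replicate 5 0.0285 and 0.0132 with weights. Bche without replicate 5 gave -0.019 with centring, -0.161 within date 1, -0.0699 with the brainstem covariate and -0.0073 with the sex score. Within date 1 Slc23a2 gave -0.0511 and Lgals3bp -0.0798, and without replicate 5 Col3a1 -0.0892 and Foxc1 -0.10. With the brainstem covariate the difference of effects for Glra1 was -0.049, or -4e-04 without replicate 5. Leaving out each array, Pon3 ran from -0.1995 to 0.0435, and without replicate 5 Pon3 ran from -0.257 to 0.0756, Pon2 from -0.106 to 0.0395 and Bche from -0.0482 to 0.0992.

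The number of arrays, 3 to 6 in a group, limits the precision.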
